A study of Homo sapiens with 6 samples.

Results

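RAB3B and 9 other RAB GTPases of regulated secretion and apical recycling were followed in H441 lung cancer cells after siRNA against the transcription factor gene ETS2. The 10 genes were RAB3B, RAB3A, RAB3D, RAB27A, RAB27B, RAB25, RAB11A, RAB8A, RAB8B and RAB37. They were listed by name, and each was read by the brightest probe that carries its symbol alone. Each had 1 such probe, so 10 of the 18417 genes tested are described. The probes were selected on their mean level over all 6 arrays, and the genes were chosen by function with earlier results of the same comparison known, in which RAB3B and RAB25 had stood out. The differences of RAB3B and RAB25 are therefore given as a description, without a p-value.

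H441 is an established human lung adenocarcinoma line. In 3 of the 6 cultures the cells received a pool of siRNAs against ETS2, and in the other 3 a scrambled control siRNA. All 6 were lipid transfections, and total RNA was isolated 48 h later. The labels call each transfection a biological replicate, and since all came from 1 cell line and 1 siRNA pool per group, p-values measure the spread between transfections. Levels are RMA values of an Affymetrix gene array on the log2 scale, and each difference is the ETS2 siRNA mean minus the control mean. ETS2 itself had levels of 8.87, 8.70 and 8.78 on the ETS2 siRNA arrays, against 9.79, 9.91 and 9.79 on the control arrays, and stood at 48.4% of its control level. Of 12 measured lung epithelial markers, 9 lay above the background floor of 6.67, among them NKX2-1, NAPSA, SFTPB, EPCAM and KRT7, while SFTPC, SCGB1A1 and SCGB3A2 lay below it. Limma called 1 of the 12, SFTPB, which fell by 0.36 (adjusted p = 0.00770), and its part in the results below was not tested. Leukocyte markers PTPRC, CD3E and LYZ, the fibroblast markers DCN and PDGFRB and the endothelial markers PECAM1, VWF, CDH5 and TEK were also below the floor. Above it lay 8 of the 17 markers of these cell types. They were CD14 and CSF1R of leukocytes, COL1A1, COL1A2, COL3A1 and LUM of fibroblasts, and KDR and CLDN5 of endothelium. Limma called 0 of the 17, where 4.91% of all genes were called. At an unadjusted p below 0.05 there were 2 of the 17, against 3408 of all 18417 genes. Since whole cultures were read, fewer cells of a type and less RNA per cell cannot be told apart.

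RAB proteins are small GTPases that sit on vesicle membranes when bound to GTP and are taken off them when bound to GDP. Exchange factors load them with GTP, GTPase-activating proteins switch them off, and in the GTP form they recruit effectors that move, tether and dock the vesicle before SNARE proteins fuse it with the target membrane. RAB3 and RAB27 proteins act at the last steps of regulated secretion, and in the mouse airway members of both groups have been tied to the release of mucin granules. RAB11A, RAB25 and RAB8 proteins carry cargo through the recycling endosome to the apical surface of epithelial cells.

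The windows around the start sites of RAB3B, RAB8B and RAB25 are shown because these are the genes whose levels differed most between the groups, and because ETS factors bind DNA at a GGAA core. They are RefSeq sequences of GRCh38.p14, 250 bases before to 50 bases after the annotated start, written on the gene's strand. Capitals mark the core GGAA, or TTCC where it lies on the opposite strand.
RAB3B, chr1:51990651-51990950, minus strand: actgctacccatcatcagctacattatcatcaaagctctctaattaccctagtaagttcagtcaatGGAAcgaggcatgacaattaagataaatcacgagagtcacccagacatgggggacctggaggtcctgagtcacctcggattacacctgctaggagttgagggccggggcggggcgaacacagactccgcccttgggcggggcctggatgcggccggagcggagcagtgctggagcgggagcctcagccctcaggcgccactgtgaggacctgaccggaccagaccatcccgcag
RAB8B, chr15:63189356-63189655, plus strand: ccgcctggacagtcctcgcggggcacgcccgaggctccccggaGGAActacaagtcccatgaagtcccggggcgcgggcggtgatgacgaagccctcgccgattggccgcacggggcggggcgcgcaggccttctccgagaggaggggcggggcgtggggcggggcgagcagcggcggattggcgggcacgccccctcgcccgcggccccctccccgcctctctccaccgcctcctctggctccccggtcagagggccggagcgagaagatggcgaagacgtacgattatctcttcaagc
RAB25, chr1:156060910-156061209, plus strand: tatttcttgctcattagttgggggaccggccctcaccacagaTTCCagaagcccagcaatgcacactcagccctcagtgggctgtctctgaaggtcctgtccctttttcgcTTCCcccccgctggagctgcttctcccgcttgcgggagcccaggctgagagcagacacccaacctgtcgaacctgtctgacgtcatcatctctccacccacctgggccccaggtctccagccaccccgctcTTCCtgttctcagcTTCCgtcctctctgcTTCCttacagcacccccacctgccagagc
RAB3B and RAB8B held 1 core each and RAB25 held 5, all of them on the opposite strand. The core occurs in 95.5% of the 35116 promoter windows of the table, with a median of 3 per window, so its presence does not set these genes apart. The longer site CCGGAA, searched on both strands, is found in 17.2% of all windows and matched in 0 of these 3. Among all members, 9 matched the table with 14 windows in total, of which 12 held the core and 3 held the longer site, in RAB27A, RAB11A and RAB8A. A match is a description of the letters and not evidence of binding.

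RAB3B encodes the RAB3 protein of secretory vesicles in epithelial, pituitary and other secreting cells. Its level was 10.13, 10.17 and 10.38 on the ETS2 siRNA arrays, against 9.01, 9.05 and 9.19 on the control arrays. Every ETS2 siRNA array lay well above every control array, and the gap between the groups was several times the range within either. The means were 10.23 ± 0.13 with ETS2 siRNA and 9.08 ± 0.09 with control siRNA (SD, n = 3 each). The difference of 1.14 (SE 0.0751, 95% interval 0.97 to 1.32) is a fold of 2.21 (95% interval 1.96 to 2.49). It ranked number 1 in size among all 18417 genes, ahead of ETS2, which ranked number 2. Leaving out any 1 array kept the difference between 1.07 and 1.20.

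No other RAB3 gene was called by the all-gene fit. RAB3A, the RAB3 form best known from synaptic vesicles, read 9.01, 8.82 and 8.99 with ETS2 siRNA, against 9.04, 9.03 and 9.12 with control siRNA. The difference was -0.12 (95% interval -0.26 to 0.01, adjusted p = 0.316 by limma), and it was -0.06 without ETS2 siRNA replicate 2. RAB3D, found on zymogen and mucin granules, read 8.85, 8.87 and 8.85 with ETS2 siRNA, against 8.91, 8.95 and 8.90 with control siRNA. For both genes all ETS2 siRNA arrays lay below all control arrays, but for RAB3D the difference was only -0.06 (95% interval -0.15 to 0.02, adjusted p = 0.434 by limma). The upper ends of both intervals lie far below the difference of RAB3B. RAB3C, the remaining RAB3 gene, was below the floor in both groups, at 5.58 ± 0.04 with ETS2 siRNA and 5.55 ± 0.08 with control siRNA (SD, n = 3 each), a difference of 0.03.

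**Figure D1:**
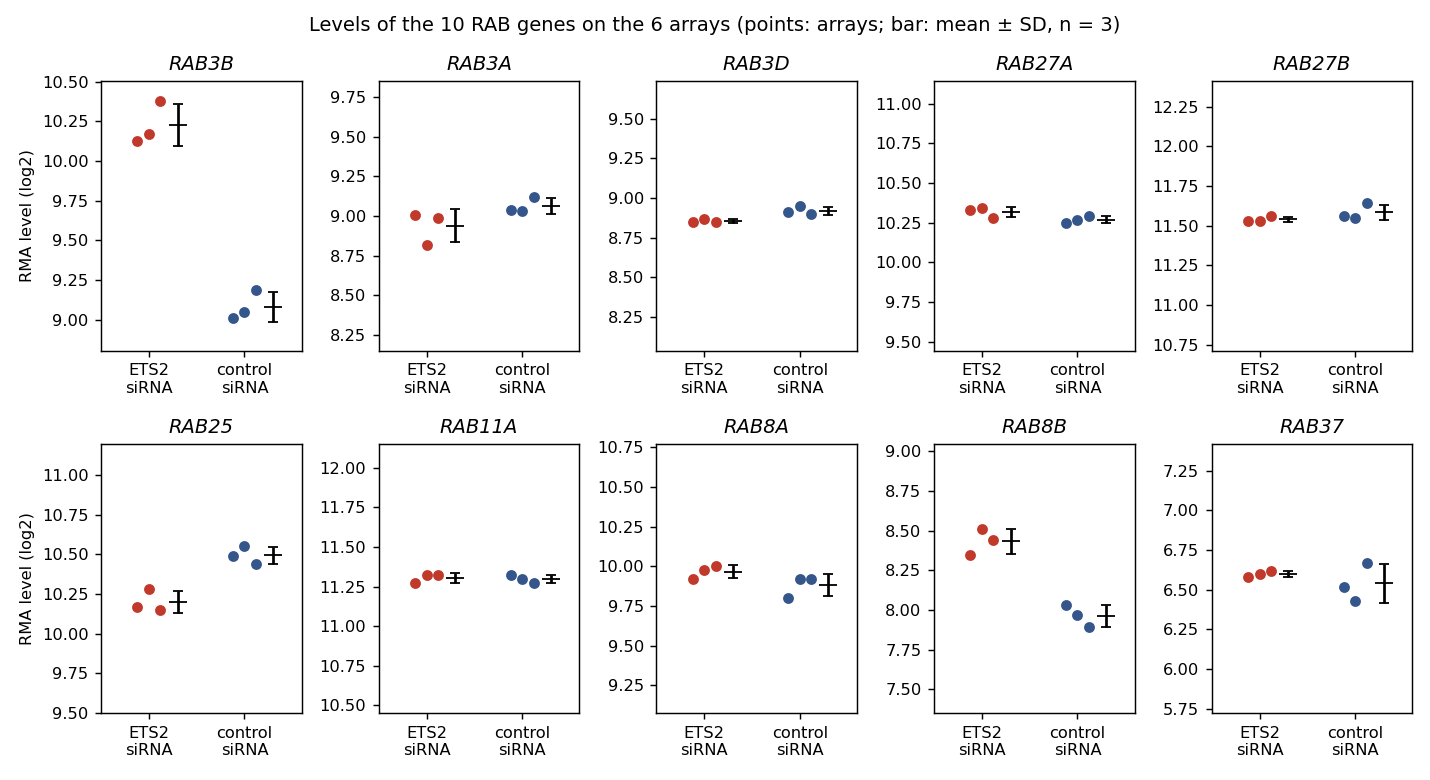
RMA levels (log2) of the 10 RAB genes, 1 panel per gene, with 3 ETS2 siRNA arrays on the left and 3 control siRNA arrays on the right as points and the mean ± SD (n = 3) as a bar; every panel spans the same number of log2 units. The groups stand clearly apart for RAB3B (difference 1.14), RAB8B (0.47) and RAB25 (-0.29), and lie close together in the other 7 panels.

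RAB8B rose. This close relative of RAB8A takes part in transport to the cell surface and the cilium. Its level was 8.35, 8.51 and 8.44 with ETS2 siRNA, against 8.03, 7.97 and 7.89 with control siRNA, and the groups did not overlap. The means were 8.43 ± 0.08 with ETS2 siRNA and 7.96 ± 0.07 with control siRNA (SD, n = 3 each). The difference of 0.47 (SE 0.0555, 95% interval 0.34 to 0.60, adjusted p = 0.00435 by limma over all genes) is a fold of 1.39 (95% interval 1.27 to 1.51), and it ranked 39th among all rises. It was called in all 15 alternative settings, with 1 array left out at between 0.43 and 0.51. The adjusted p of RAB8B does not account for the members having been listed with earlier results of these data known.

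RAB8A, which loads vesicles for the apical surface and the primary cilium, read 9.92, 9.98 and 10 with ETS2 siRNA, against 9.80, 9.92 and 9.92 with control siRNA. The groups met at 9.92, and the difference of 0.09 (95% interval -0.02 to 0.20, adjusted p = 0.403 by limma) was not called. RAB8B gained 0.38 more than RAB8A within arrays. An exact two-sided permutation test of that gain over the 6 arrays gave p = 0.1. With 3 arrays against 3 no smaller value is possible. The groups of RAB8B alone already did not overlap, which favours a value at that limit for this pair. The test therefore cannot decide whether RAB8B rose more than RAB8A, and the gain is given as a description.

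RAB25, a RAB11 relative largely restricted to epithelia that returns integrins and other cargo to the surface, stood lower. Its level was 10.17, 10.28 and 10.15 with ETS2 siRNA, against 10.49, 10.55 and 10.44 with control siRNA, and the groups did not overlap. The means were 10.20 ± 0.07 with ETS2 siRNA and 10.49 ± 0.06 with control siRNA (SD, n = 3 each). The difference of -0.29 (SE 0.0502, 95% interval -0.41 to -0.18) leaves 81.6% of the control level. Leaving out any 1 array kept the difference between -0.33 and -0.27, but RAB25 passed the threshold in only 3 of those 6 fits. Since RAB25 was listed with its difference known, passing the threshold is a description here and not a test. RAB11A, the broadly expressed member of the same group, read 11.27, 11.32 and 11.32 with ETS2 siRNA, against 11.32, 11.30 and 11.27 with control siRNA. Its groups covered nearly the same range, and the difference of 0.0067 had a 95% interval from -0.08 to 0.09 (adjusted p = 0.962 by limma).

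Neither RAB27 gene was called, and both had overlapping groups. RAB27A, which docks secretory lysosomes and granules and, in melanocytes, melanosomes, read 10.33, 10.34 and 10.28 with ETS2 siRNA, against 10.25, 10.27 and 10.29 with control siRNA. Its difference was 0.05 (95% interval -0.04 to 0.13, adjusted p = 0.603 by limma). RAB27B, its paralog of secretory cells, read 11.53, 11.53 and 11.56 with ETS2 siRNA, against 11.56, 11.55 and 11.64 with control siRNA. Its difference was -0.04 (95% interval -0.14 to 0.05, adjusted p = 0.659 by limma). For both genes the interval leaves out any change the size of that of RAB8B. RAB37, a granule RAB first described in mast cells, was the 1 member below the floor, at 6.60 ± 0.02 with ETS2 siRNA and 6.54 ± 0.12 with control siRNA (SD, n = 3 each), so that its difference of 0.06 (adjusted p = 0.687 by limma) was read at background.

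In all, the fit called 3 of the 10 members (RAB3B and RAB8B higher, RAB25 lower), where 4.91% of all genes were called (2.28% higher and 2.63% lower). The groups did not overlap for 5 members, 2 higher and 3 lower, where this held for 23.1% of all genes. Since the list was made with RAB3B and RAB25 in view, nothing is read from these counts. The median difference of the members was 0.0267, against 0.0033 over all genes.

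**Figure D2:**
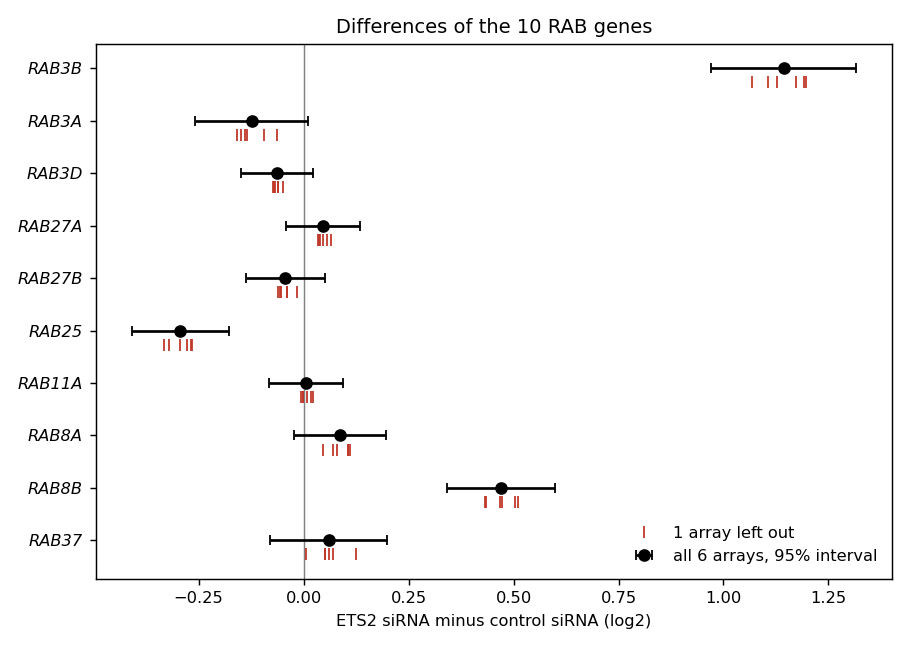
Difference of each RAB gene (ETS2 siRNA minus control siRNA, log2), with the all-array value and its 95% interval in black and the values with 1 array left out as red ticks. RAB3B stays between 1.07 and 1.20, RAB8B between 0.43 and 0.51 and RAB25 between -0.33 and -0.27 whichever array is left out, while the intervals of the other 7 genes include 0.

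Beyond the members, 49 other RAB genes were measured, of which 1 rose and 3 fell (8.16% called, against 4.91% of all genes). RASEF, an atypical RAB with added EF-hand and coiled-coil domains, fell by 0.36 (SE 0.0497, adjusted p = 0.00765 by limma). It read 8.86, 8.90 and 8.85 with ETS2 siRNA, against 9.14, 9.30 and 9.26 with control siRNA. RAB19 fell by 0.32 (SE 0.0443, adjusted p = 0.00766), reading 8.93, 8.92 and 8.91 with ETS2 siRNA, against 9.17, 9.30 and 9.26 with control siRNA. Every ETS2 siRNA array of both genes lay below every control array. RAB40B, whose product joins a cullin ubiquitin ligase, fell by 0.22 (adjusted p = 0.0459), and RAB31, which acts between the Golgi and endosomes, rose by 0.28 (adjusted p = 0.0204). With 1 array left out in turn, RAB31 was called in 2 of 6 fits and RAB40B in 0. The 49 differences ran from -0.36 to 0.28 with a median of -0.0033. RAB8B lay above that range, as did RAB3B, which had been listed with its difference already known.

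Proteins that act on or with these RABs were read list by list. Of 17 effectors of RAB3 and RAB27, 1 rose and 1 fell (11.8% called, against 4.91% of all genes). MLPH, melanophilin, which links RAB27A to a myosin motor, rose by 0.30 (SE 0.0439, adjusted p = 0.00965 by limma), with levels of 10.02, 10.07 and 10.04 with ETS2 siRNA, against 9.67, 9.78 and 9.77 with control siRNA. It was not called without ETS2 siRNA replicate 2 or ETS2 siRNA replicate 3 (adjusted p = 0.0518 and 0.0541). UNC13D, which primes granules for fusion together with RAB27A, fell by 0.19 (adjusted p = 0.0279) and was not called with any 1 array left out. The median over the 17 genes was 0.0333.

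Of 14 effectors of RAB11, RAB25 and RAB8, 1 was called (7.14%, against 4.91% of all genes). It was EHBP1, which links RAB8 vesicles to actin and fell by 0.26 (adjusted p = 0.0210 by limma). With 1 array left out in turn, EHBP1 was called in 2 of 6 fits. Of 17 exchange factors and GTPase-activating proteins, 1 was called (5.88%). RABGAP1, a GTPase-activating protein, fell by 0.24 (adjusted p = 0.0150) and was likewise called in 2 of 6 such fits. Among RAB3 regulators of that list, the exchange factor MADD differed by -0.03 (95% interval -0.13 to 0.06) and the GTPase-activating subunits RAB3GAP1 and RAB3GAP2 by 0.01 and 0.02. In the same list RAB3IL1, RABIF and RAB3IP differed by 0.10, 0.07 and -0.15, and none of them was called. The medians of these lists were -0.01 and 0.0167. All 5 measured genes of RAB prenylation and membrane extraction had negative differences, with a median of -0.06. Limma called 0 of these 5, where 4.91% of all genes were called. At an unadjusted p below 0.05 there were 2 of the 5, against 3408 of all 18417 genes. RABAC1, which binds prenylated RABs, came closest to a call (-0.16, adjusted p = 0.0580 by limma).

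Of 23 genes of the fusion machinery, 1 rose and 3 fell (17.4% called, against 4.91% of all genes), with a median of -0.02. NSF, the ATPase that takes spent SNARE complexes apart, fell by 0.34 (SE 0.0385, adjusted p = 0.00363 by limma). Its levels were 10.96, 11.01 and 10.97 with ETS2 siRNA, against 11.32, 11.35 and 11.29 with control siRNA, a gap far wider than the range within either group. SNAP23, the plasma membrane SNARE of non-neuronal cells, fell by 0.26 (adjusted p = 0.0325), and SYT1, a calcium sensor of vesicle fusion, by 0.27 (adjusted p = 0.0312). VAMP7, a vesicle SNARE of late endosomes and secretory lysosomes, rose by 0.21 (adjusted p = 0.0238). With 1 array left out in turn, NSF was called in 6 of 6 fits, SNAP23 and VAMP7 in 1 each and SYT1 in 0. The exocyst, the complex that tethers RAB8 and RAB11 vesicles to the plasma membrane, held no called gene. Its 9 subunit genes had differences between -0.06 and 0.05. Limma called 0 of them, where 4.91% of all genes were called. At an unadjusted p below 0.05 there were 0, against 3408 of all 18417 genes. EXOC6B came closest (-0.06, adjusted p = 0.530 by limma).

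Of 10 genes of dense-core granule cargo and enzymes, 1 was called (10%, against 4.91% of all genes). SCG5, the chaperone 7B2 of neuroendocrine granules, fell by 0.40 (SE 0.0852, adjusted p = 0.0363 by limma). It read 6.77, 6.86 and 6.97 with ETS2 siRNA, against 7.13, 7.45 and 7.23 with control siRNA, not far above the floor. With 1 array left out in turn, SCG5 was called in 1 of 6 fits. Over all these lists together, 3 genes rose and 10 fell of 144 measured (9.03%), where 2.28% of all genes rose and 2.63% fell. That count rested on the full set of arrays. It was 4, 3 and 1 without ETS2 siRNA replicates 1, 2 and 3, and 9, 9 and 5 without control siRNA replicates 1, 2 and 3. The count over all genes fell too, from 904 to 377, 274 and 213 and to 421, 735 and 356 in the same fits. Of the 13, only NSF was called with any 1 of the 6 arrays left out, and RASEF and RAB19 were lost without ETS2 siRNA replicate 3 alone (adjusted p = 0.0510 and 0.0503).

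**Figure D3:**
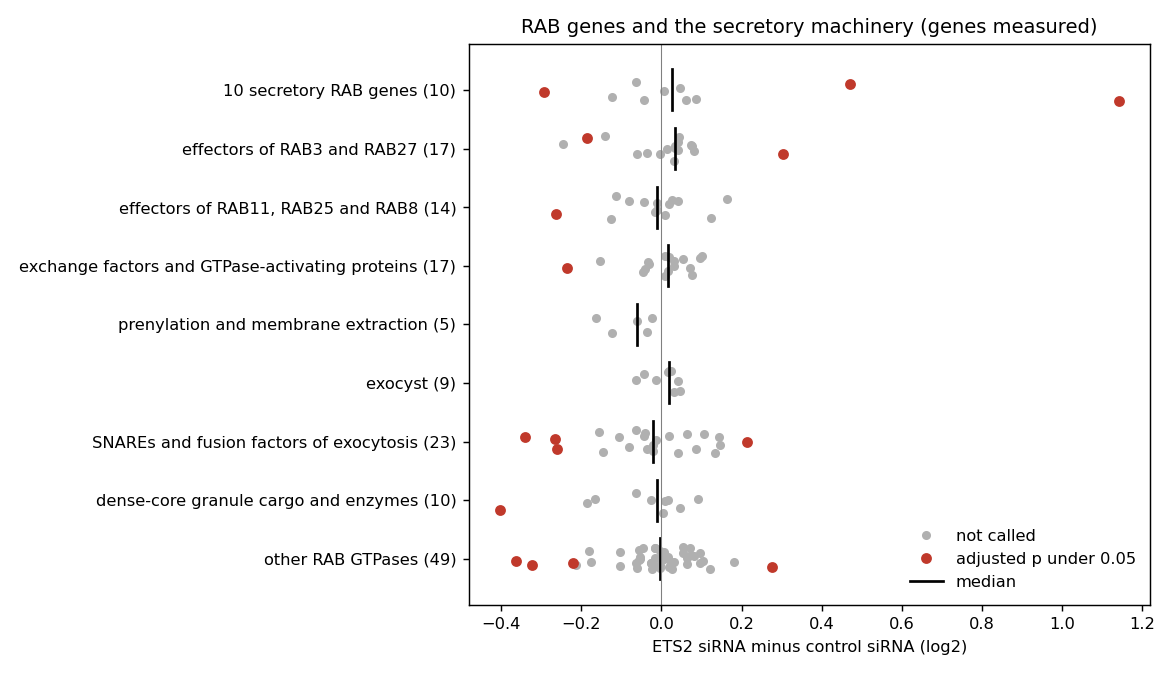
Difference of every measured gene (ETS2 siRNA minus control siRNA, log2) in the 10 secretory RAB genes and 8 lists of their partners and of other RAB genes. Each point is 1 gene, red where the adjusted p was under 0.05, with the list median as a black line and the number measured in brackets. RAB3B at 1.14 and RAB8B at 0.47 lie beyond all other points, and the list medians lie between -0.06 and 0.0333.

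The genes closest to RAB3B in their pattern over the 6 arrays were found by the root mean square difference between values centred on each gene's own mean. They were the sulfotransferase gene CHST4 (root mean square difference 0.158), the tensin gene TNS4 (0.171), HMOX1 (0.227), SERPINB5 (0.249) and the ETS factor gene SPDEF (0.254). Their own differences ran from 0.68 to 1.00, smaller than that of RAB3B, as they had to be because it was the largest of all genes. The distance depends on the size of the difference, so it favours genes with large rises. None of the 5 read highest on ETS2 siRNA replicate 3, where RAB3B did. For RAB25 the closest were PFKFB3 (0.0138), FAM117B (0.0189), CAPN6 (0.0227), RALGAPA2 (0.0229) and HLA-DMA (0.0277), with differences from -0.30 to -0.27. These 5 also shared the place of RAB25 within each group, highest on replicate 2 of the ETS2 siRNA arrays and of the control arrays. The likeness is a description over 6 arrays of 2 groups, and many genes were searched to find it.

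**Figure D4:**
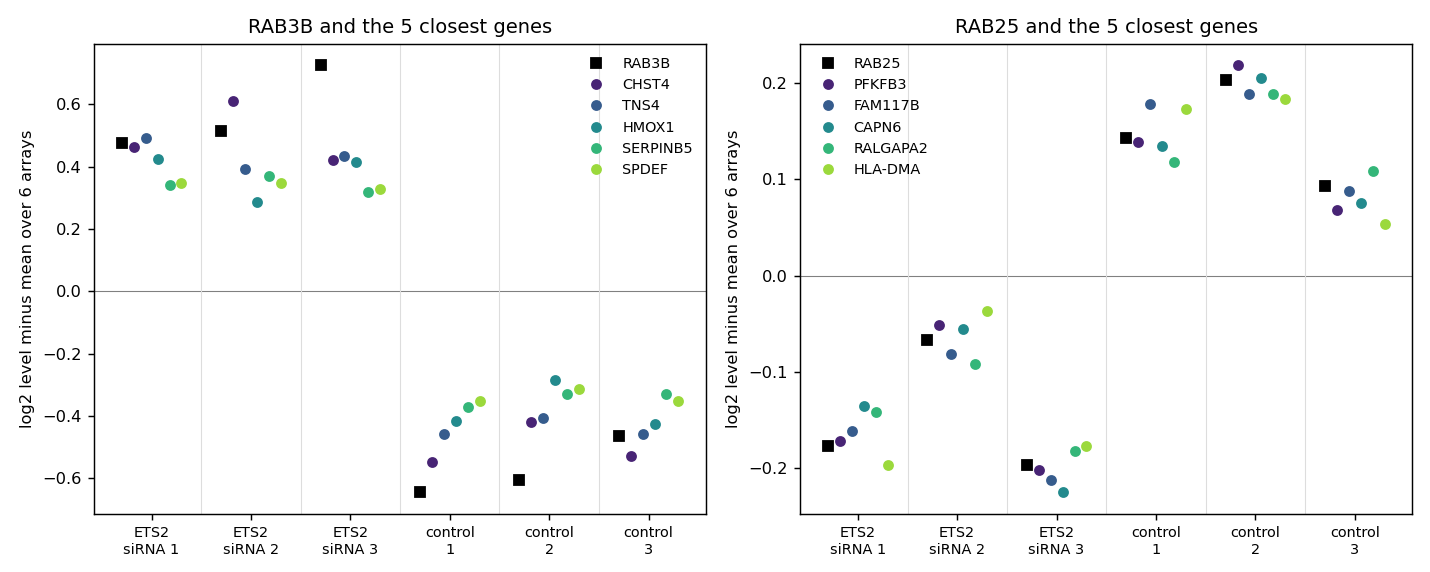
Log2 levels minus each gene's mean over 6 arrays, for RAB3B (left, black squares) and RAB25 (right, black squares) with the 5 genes closest to each, shown array by array with ETS2 siRNA arrays left of control siRNA arrays; the vertical scales differ. RAB3B stands above its 5 neighbours on ETS2 siRNA replicate 3, while the 5 neighbours of RAB25 follow it closely on all 6 arrays.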

How the data were processed

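The table held log2 expression levels that the authors deposited for 6 arrays, rounded to 2 decimals. They were made with RMA, per the submitters' processing notes, whose version and genome build the sources used here do not state. RMA brings arrays to a common distribution, which removes any shift shared by all genes, and it compresses differences of dim genes. Precision is limited by having 3 arrays per group. Array medians lay between 8.07 and 8.10.

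Of 33297 probes, 19460 carried 1 gene symbol in the platform annotation, 1754 several, and 12083 were unnamed here. The brightest probe per gene left 18417 genes. The background floor is the 95th percentile of the mean levels of 341 olfactory receptor genes, 6.67. Differences were fitted with limma 3.58.1 in R 4.3.3 (lmFit, eBayes, two-sided, Benjamini-Hochberg over all genes), and a gene counts as called at an adjusted p under 0.05. The fit was tested on simulated data. Of 156 listed genes beyond the members, partners and other RAB genes together, 144 were measured. From each list up to 6 called genes with the largest difference are named, or, where none was called, the 1 of smallest p; other genes were chosen after their values were seen. The 5 closest patterns were sought among genes above the floor, leaving out the members and uncharacterised or small RNA symbols.

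The members and lists were chosen with earlier results of these data known. Promoter windows came from RefSeq (GRCh38.p14). Proteins were not analysed here. The alternatives were the replicate block, 3 rescalings, averaging a gene's probes, testing all probes, a filter on dim genes, 2 variance models and each of 6 arrays left out.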

Additional observations from a re-analysis of the deposited data

How the results depend on the processing

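RAB8B was called under all 15 alternatives, and the 7 uncalled members under none of those that tested them. The differences of RAB3B lay between 1.07 and 1.20 and those of RAB25 between -0.33 and -0.27 over the same settings, as a description. The count of members past the threshold was 3 in 11 of the 15 and 2 in the other 4 (all probes tested, and without ETS2 siRNA replicate 1, ETS2 siRNA replicate 3 or control siRNA replicate 1). The member lost in those 4 was RAB25. As RAB3B and RAB25 were listed with their differences known, nothing is read from this count. The count over all genes was 904. It was 1397 among genes above the floor alone, 322 with all probes tested, 1963 with an intensity trend in eBayes and between 213 and 735 with 1 array left out. For the lists of partners and other RAB genes the count of 13 became 21, 4 and 23 under the same 3 settings. It lay between 1 and 9 with 1 array left out. These settings change the arrays, the number of tests or the variance model, and the cause of the shifts was not tested. With the replicate number as a block (replicate block), 604 genes, 3 members and 9 genes of those lists were called. UNC13D, SYT1, VAMP7 and RAB40B were not called under it (adjusted p from 0.0654 to 0.0926). The numbers do not pair the arrays by the labels, and the deviations of same-numbered arrays correlated at 0.241, 0.233 and 0.0689, with replicate 3 not closest to its own number. Signal over background limits what can be said of RAB37 and RAB3C, both below the floor.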

Other observations

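Several further genes of granule release lay outside the threshold, chosen after their values were seen. PTPRN and CPE, a membrane protein and a processing enzyme of dense-core granules, had differences of -0.19 and -0.17 (adjusted p = 0.0666 and 0.0925 by limma). SYTL5 and EXPH5, effectors of RAB27, had differences of -0.25 and -0.14 (adjusted p = 0.0614 and 0.0946), SNAP29 one of -0.16 (adjusted p = 0.0705), and RAB3IP, an exchange factor of RAB8, one of -0.15 (adjusted p = 0.0988). None of these passed the threshold. Their shared direction is not read as a trend, since they were picked by their values. The share of all genes in the same range was not counted. Further from the threshold, STX4 and STX3 had differences of 0.15 and 0.13 (adjusted p = 0.107 and 0.122 by limma). STX11 had one of -0.15 (adjusted p = 0.120). With ETS2 siRNA the mean of PTPRN, 6.57, lay below the background floor, and that of SYTL5, 6.84, not far above it. A further 4 probes carry the symbol of a measured listed gene among several, for RAB43, EXOC7 and RAB6A. Their differences ran from -0.0067 to 0.06, with adjusted p-values from 0.790 to 0.987 by limma when all probes were tested. The listed genes DENND10, RAB4B, RAB6C and RAB34 lay on probes with several symbols alone and counted as not measured.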
